A study of Drosophila melanogaster with 3 samples.

Results

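MicroRNA precursor genes encode the hairpins from which the mature microRNAs of Drosophila melanogaster are cut. Their surroundings were examined in chromatin immunoprecipitation sequencing (ChIP-seq) of the protein encoded by CG14050, fused to enhanced green fluorescent protein (eGFP) and precipitated with an antibody against GFP. Precursors were taken as the genes on the chromosome arms whose transcript is of the class pre_miRNA in the Ensembl annotation BDGP6.54. In that release their gene-level class reads ncRNA, so the transcript class was used. This gave 260 of 17683 genes, and all 260 had the same start and end in RefSeq. Of these, 92 overlapped no protein-coding gene on either strand and 166 lay wholly inside one, 136 of them on the strand of a protein-coding host and 30 on the other strand only. The remaining 2, mir-11182 and mir-4942, overlapped a protein-coding gene in part.

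The libraries came from whole embryos 0 to 24 hours old of a transgenic line that makes CG14050-eGFP, in 3 biological replicates of 1 group. No other genotype, treatment or age was present, and whole embryos mix every cell type of that period. A precursor was counted as having a peak where the summit lay within 2000 bp of its 5′ end. The authors compared replicates to make what they call the conservative list, with 3502 peaks on the arms. The lists of replicates 1, 2 and 3 held 2155, 2421 and 2275. Signal is the authors' own peak height, whose scale is not given, so signals were compared only within a list. All coordinates are on dm6.

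Most microRNA genes are transcribed by RNA polymerase II into a long primary transcript. Drosha with Pasha cuts the precursor hairpin out of that transcript in the nucleus, Ranbp21 exports it, and Dicer-1 with Loquacious releases the mature strand that guides Argonaute-1. A precursor is therefore often several kilobases from the promoter that makes it, and one primary transcript may carry several hairpins. Short introns that fold into hairpins, called mirtrons, bypass Drosha. Target choice rests mainly on the seed, bases 2 to 8 of the mature strand.

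A mature strand of 7 of the 10 precursors with a peak in every replicate list is printed here to show its seed, in capitals, together with relatives that share a seed. They were read 5′ to 3′ from the RefSeq genome (dm6 assembly).
mir-279-3p, chr3R:29215651-29215672, plus strand: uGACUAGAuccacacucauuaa
mir-996-3p, chr3R:29217244-29217265, plus strand: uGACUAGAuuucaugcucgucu
mir-92a-3p, chr3R:25646560-25646581, plus strand: cAUUGCACuugucccggccuau
mir-92b-3p, chr3R:25651457-25651478, plus strand: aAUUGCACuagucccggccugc
mir-375-3p, chr2L:857596-857617, plus strand: uUUGUUCGuuuggcuuaaguua
mir-955-5p, chr3L:3299072-3299094, plus strand: cAUCGUGCagagguuugaguguc
mir-2496-3p, chrX:2010385-2010406, plus strand: gCGGGGCAcucacacacgcaua
mir-9377-3p, chrX:12665247-12665267, plus strand: cUUGAUGGggagaaggagagg
mir-9378-5p, chr2L:10751915-10751938, minus strand: aGUGGAGUgagaccucgaguucgg
The seed GACUAGA of mir-279-3p was shared with mir-996 and mir-286, and of the 3 only mir-279 had a conservative summit in its window. The seed AUUGCAC of mir-92a-3p occurred in 6 precursors, of which mir-92a and mir-310, mir-311, mir-312 and mir-313 had a summit in the window and mir-92b had none. For mir-310 to mir-313 this was a single shared summit, so these relatives are not separate cases. Over all precursors 7.69% had a conservative summit in the window. The seeds printed for mir-375, mir-955, mir-2496, mir-9377 and mir-9378 occurred in no other precursor.

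The hairpins of mir-279 and mir-996 are shown because they lie in 1 host transcript downstream of the strongest peak at any precursor. Mature strands are in capitals.
mir-279, chr3R:29215585-29215684, plus strand: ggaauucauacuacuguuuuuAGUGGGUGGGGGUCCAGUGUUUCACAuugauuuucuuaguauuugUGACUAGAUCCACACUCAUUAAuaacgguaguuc
mir-996, chr3R:29217184-29217280, plus strand: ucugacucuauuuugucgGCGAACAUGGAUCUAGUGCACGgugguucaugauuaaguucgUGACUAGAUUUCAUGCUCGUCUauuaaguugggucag
Both hairpins carry the seed in the 3′ arm.

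Taken as 1 set, precursors had a CG14050-eGFP peak nearby less often than genes in general, and the classes of precursors differed, as given below. A conservative summit lay within 2000 bp of 20 of the 260 precursors, or 7.69% (exact Clopper-Pearson 95% interval 4.76 to 11.6), against 18.4% of genes of every class and 19.8% of protein-coding genes. The 20 precursors formed 17 of 203 loci, where a locus joins precursors on 1 strand that follow each other within 10 kb. Intervals here and below cover counting error only, and precursors that share a peak or a locus are not independent.

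The replicate lists gave the same order. A summit lay within 2000 bp of 14 precursors in replicate 1 (5.38%), 17 in replicate 2 (6.54%) and 21 in replicate 3 (8.08%), against 12.9%, 14.1% and 13.8% of genes of every class. The mean was 6.67% ± 1.35 for precursors and 13.6% ± 0.634 for genes (SD, n = 3), and the values of the precursors and of all genes did not overlap. In the other lists made across replicates, named by their number of peaks, 17 precursors (6.54%) had a summit in the list of 3219, 21 (8.08%) in the list of 3247 and 21 (8.08%) in the list of 3534. The shares of all genes there were 16.9%, 17.1% and 18.2%.

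Precursors outside protein-coding genes had a peak more often than those inside. Outside protein-coding genes 13 of 92 had a conservative summit, 14.1% (7.74 to 23.0), against 10.1% of other noncoding genes outside protein-coding genes and 5.79% of intergenic bases. This interval holds the 18.4% of genes of every class. Replicates 1, 2 and 3 gave 7.61%, 14.1% and 15.2% outside, against 12.9%, 14.1% and 13.8% of genes of every class. Inside protein-coding genes 7 of 166 had one, 4.22% (1.71 to 8.50), against 17.3% of other noncoding genes inside a protein-coding gene and 9.96% of the bases of such genes. Over the replicate lists the mean was 12.3% ± 4.12 outside and 3.61% ± 1.04 inside (SD, n = 3). The lowest value outside, 7.61% in replicate 1, was above the highest inside, 4.22%, while the intervals of the conservative shares overlapped from 7.74% to 8.50%.

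**Figure D1:**
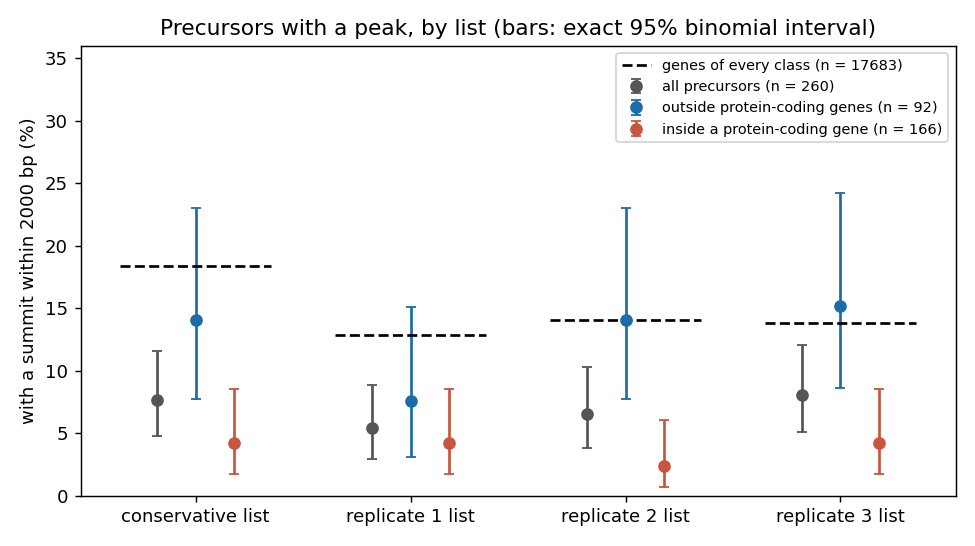
Share of precursors with a summit within 2000 bp (%, vertical axis) in the conservative list and the 3 replicate lists; points are shares, bars exact 95% binomial intervals, and dashed lines the share of all 17683 genes. Precursors inside a protein-coding gene (red) lie at 2.41% to 4.22% in all 4 lists, and those outside (blue) at 7.61% to 15.2%.

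Within genes, all 7 precursors with a conservative summit lay on the strand of their host. None of the 30 on the other strand only had one, which allows a share of up to 10% (3 counts of the total, a one-sided limit), and 20 of these 30 had a region of the ranked conservative list within 2000 bp. The 34 precursors that span an annotated intron, as mirtrons do, also had none (up to 8.82%), and 27 of them had a ranked region. In the replicate lists, 1 of the 34 had a peak, mir-4911 inside ND-23, with a signal of 40.9 in replicate 3. Over all precursors 193 of 260 (74.2%) had a ranked region within 2000 bp, against 80.7% of genes of every class.

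The difference between the classes was not the same at every distance. Within 10000 bp of a conservative summit lay 56.5% of precursors outside protein-coding genes and 44.6% of those inside, against 20.2% and 36.7% of the bases of these classes. Within 500 bp there were 1.09% and 1.81%, against 2.13% and 2.54% of bases. The median distance from a precursor start to the nearest conservative summit was 10411 bp (quartiles 5147 and 26040), close to the 10399 bp of protein-coding genes (quartiles 3169 and 25820). The lower quartile was thus farther away for precursors, and the median was not.

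**Figure D2:**
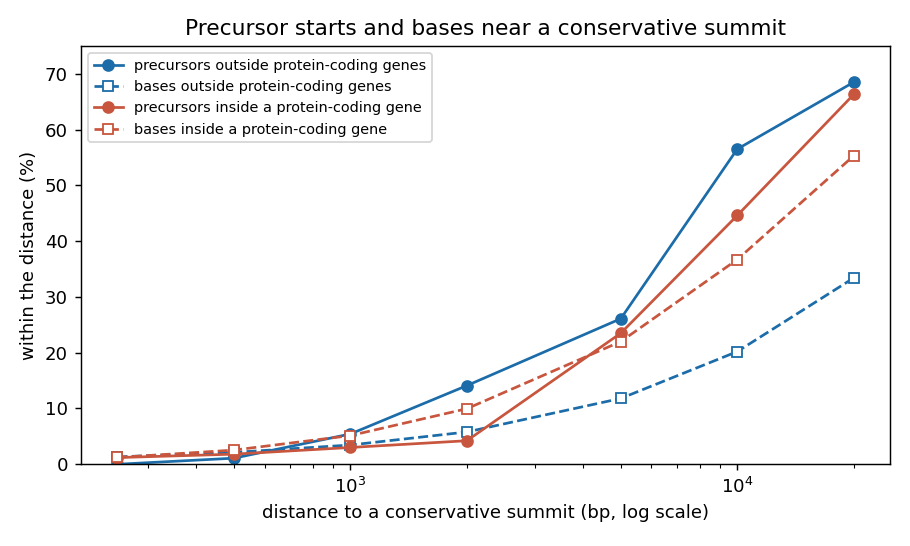
Share (%, vertical axis) of precursor starts (filled circles) and of bases (open squares) that lie within a given distance of a conservative summit (bp, log scale), outside (blue) and inside (red) protein-coding genes. Precursors outside genes leave the line of their bases from 2000 bp on, with 14.1% against 5.79%, while those inside lie under theirs at 2000 bp, with 4.22% against 9.96%.

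The strongest peak at a precursor was that of mir-279, which represses the formation of carbon dioxide-sensing neurons in the fly. Its summit at chr3R:29214447 lay 1138 bp upstream of the precursor, with a conservative signal of 1010, rank 37 of 3502. The replicate signals were 304, 341 and 368, each past the threshold of its list. This summit was 115 bp from the start of lncRNA:CR31044, the noncoding transcript that contains both mir-279 and mir-996, and 5725 bp from the nearest protein-coding start, that of eEF1gamma. For mir-996 the same summit was 2737 bp away and outside the window.

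Other peaks at precursors outside protein-coding genes were weaker. The peak 847 bp upstream of mir-4981, also 647 bp from the start of CG14762, had a signal of 375 (rank 310), with 86.5, 130 and 156 in replicates 1, 2 and 3. At mir-8, the fly member of the miR-200 family and a regulator of growth, the summit lay 941 bp upstream and 198 bp from the start of its host lncRNA:CR43650. Its signal was 145 (rank 1587), with 44.3, 51.3 and 59.3 in the replicates. Both peaks were in every replicate list.

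At mir-375 there were 3 conservative peaks. The strongest, 721 bp upstream, had a signal of 171 (rank 1240) and 47.0, 46.1 and 71.1 in the replicates. The weakest, 514 bp upstream with a signal of 20.0, overlapped the same replicate peaks, so these 2 conservative peaks are 1 peak in each replicate list. A further one, 720 bp downstream, had a signal of 69.5 and passed in none of the replicate lists. The host transcript lncRNA:CR45345 begins 139 bp upstream of the hairpin, 375 bp from the nearest of the 3 summits.

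At mir-955 the summit lay 1469 bp downstream of the precursor start, in an intron and 444 bp from the start of CG14968, with a signal of 161 (rank 1363) and 45.8, 56.1 and 53.2 in the replicates. Peaks lay on both sides of mir-2496 on X. Its downstream peak, 1463 bp away and 545 bp from the start of east, had a signal of 197 (rank 994) and 49.3, 74.5 and 66.2 in the replicates. Its upstream peak, 437 bp away, lay 94 bp from the start of lncRNA:CR45478 and 499 bp from that of PIG-K. The signal of this upstream peak was 152 (rank 1479), with 75.5 and 54.9 in replicates 2 and 3. In replicate 1 that region had a signal of 23.9 and did not pass.

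The peaks of the remaining precursors outside genes were missing from at least 1 replicate list. At mir-282 the summit was 804 bp upstream in an exon of lncRNA:CR43626, with a signal of 157 (rank 1415), 54.7 and 69.5 in replicates 2 and 3 and no overlapping region in replicate 1. A single peak served mir-310, mir-311, mir-312 and mir-313, a cluster of young microRNAs. It lay 1220 to 1640 bp downstream of their starts, 488 bp from the start of qsm, with a signal of 123 (rank 1969), 61.6 and 42 in replicates 2 and 3 and no overlapping region in replicate 1.

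Bantam (mir-ban), which promotes growth and blocks apoptosis, and mir-277, a regulator of branched-chain amino acid breakdown, had peaks in the replicate 3 list alone. The bantam summit was 1447 bp upstream with a signal of 92.8 (rank 2738), and 29.1, 26.3 and 41.6 in the replicates. The mir-277 summit was 1815 bp upstream with a signal of 110 (rank 2264), and 25.7, 36.7 and 43.4. For both, the first and second of these values did not pass the threshold of their list.

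Inside protein-coding genes the strongest peaks were 2 in an intron of Tis11, which encodes an RNA-binding protein that destabilises messenger RNAs. They lay 1396 and 406 bp downstream of the start of mir-9377, with signals of 336 (rank 392) and 307 (rank 466). The first had 92.6, 100 and 142 in the replicates and the second 70.5, 118 and 118. Both were in every replicate list and over 5 kb from the nearest protein-coding start, at 6079 and 5089 bp.

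The peak at mir-92a, a microRNA of neural progenitors, lay 567 bp downstream of the precursor start and 173 bp from an annotated start of its host jigr1. It had a signal of 243 (rank 714) and 68.6, 92.6 and 95.7 in the replicates, all past the threshold. That jigr1 start lies 740 bp downstream of the precursor start, so its transcript does not contain mir-92a. No start of a transcript that contains this hairpin had a conservative summit within 500 bp. The hairpin of mir-92b, in the same host, was 4325 bp from the summit at mir-92a.

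At mir-308, which lies in RpS23, the gene of a small ribosomal subunit protein, the stronger peak was in an exon 23 bp from a host start and 740 bp upstream of the hairpin. Its signal was 174 (rank 1195), with 52.0, 51.4 and 70.8 in the replicates. A weaker peak 910 bp downstream had a signal of 126 (rank 1897), with 41.1, 24.2 and 66.8, and passed in replicate 3 alone. The mature strand of mir-308 shares the seed AUCACAG with 13 other precursors, those of the mir-2, mir-13, mir-6, mir-5 and mir-11 group, none of which had a conservative summit in its window. Over all precursors the share with one was 7.69%, and many of the 13 lie together in clusters. The absence is therefore not a result about this group.

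At mir-9378 in CG17124 the summit was 162 bp upstream, with a signal of 136 (rank 1717) and 49.7, 41.4 and 55.8 in the replicates, all past the threshold. For the other 3 inside genes the peak was absent from at least 2 replicate lists. At mir-2491 the summit was 134 bp upstream, the nearest to any precursor start, with a signal of 116 and 24.8, 37.9 and 48.6 in the replicates, the last alone past the threshold. At mir-4967 (1184 bp, signal of 117) and mir-4968 (1880 bp, signal of 101) the peak passed in no replicate list.

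**Figure D3:**
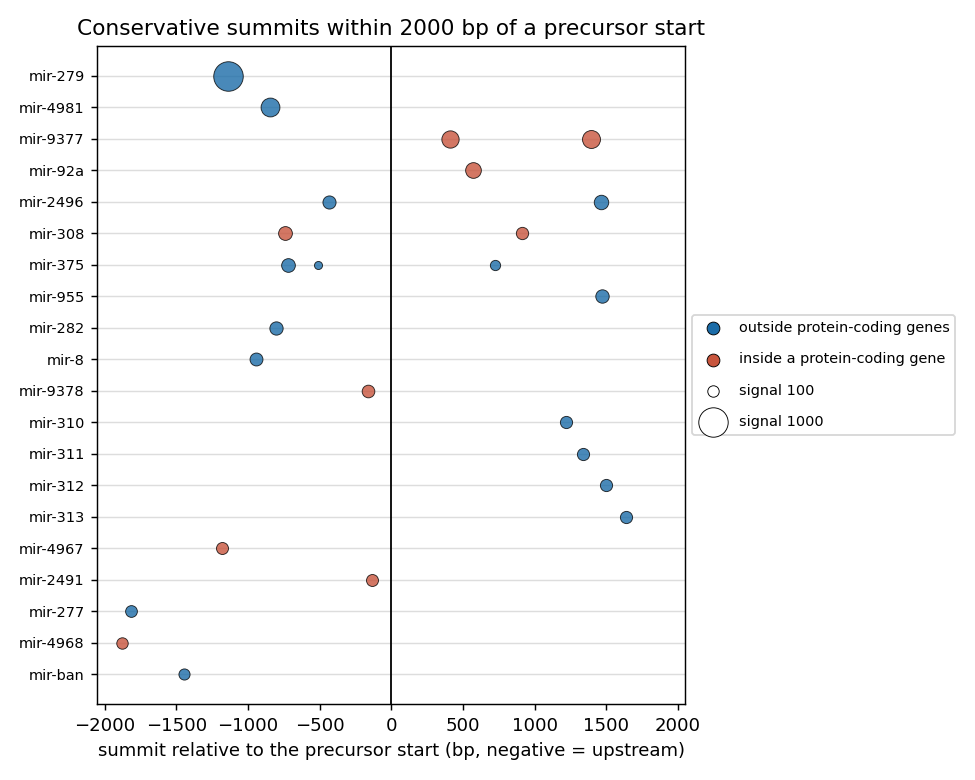
Position of each conservative summit relative to the precursor start (bp, negative upstream) for the 20 precursors with one, ordered by their strongest peak; circle area rises with the authors' signal. Summits lie on both sides, with 14 upstream and 11 downstream over 25 pairs of precursor and peak, and the largest circle is that of mir-279.

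In all, the 20 precursors had 22 distinct conservative peaks. Of these, 12 were in all 3 replicate lists, 3 in 2 lists, 4 in 1 and 3 in none (54.5%, 13.6%, 18.2% and 13.6%), against 40.6%, 19.7%, 21.0% and 18.6% of all 3502 peaks. The 12 include the 2 overlapping peaks upstream of mir-375, which are 1 peak in each replicate list. The median signal of the 22 was 149 against 134. Fewer of them lay at protein-coding promoters, with 5 of 22 (22.7%) within 500 bp of such a start against 45.8% of all peaks. Counting starts of every gene class, the shares were 9 of 22 (40.9%) and 48.3%. By position 10 were in an intron of a protein-coding gene, 6 intergenic, 5 in a noncoding exon and 1 in an exon of a protein-coding gene. In 17 of the 22 the summit was less than 2 bp from the peak centre, so those positions add nothing to the peak edges.

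**Figure D4:**
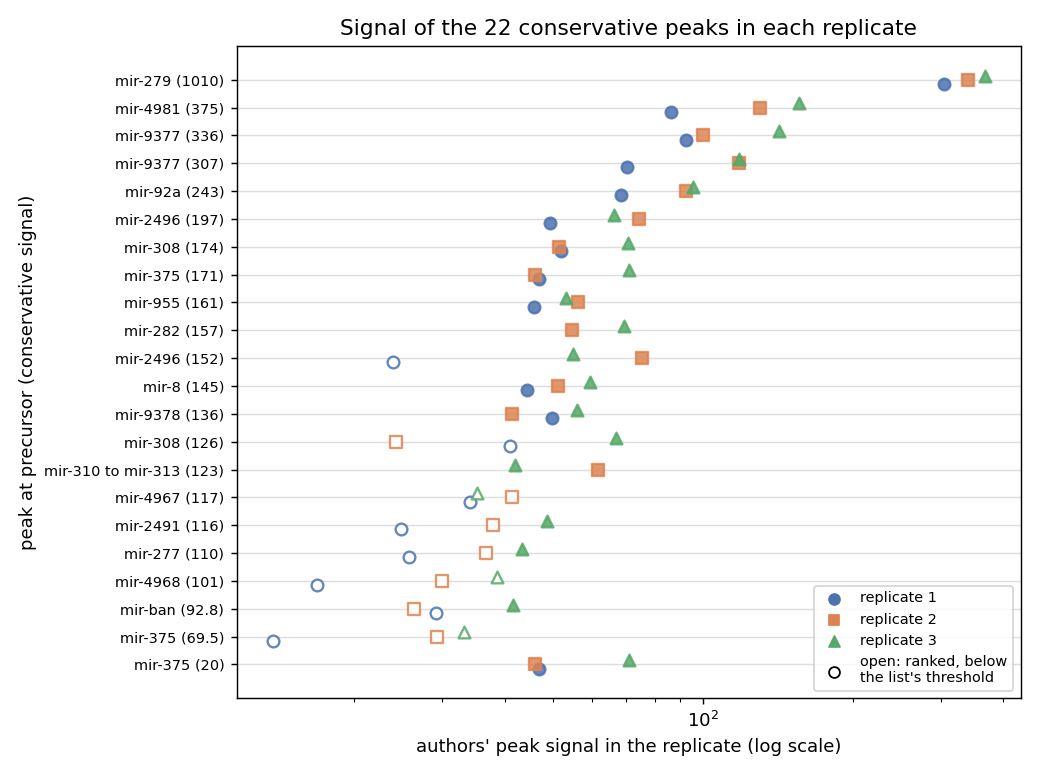
Authors' signal (log scale) of the 22 conservative peaks in replicates 1, 2 and 3, ordered by conservative signal, which is given after the name; filled symbols passed the threshold of the replicate list and open ones did not. At mir-279 the replicates read 304, 341 and 368, far to the right of the next peak at 86.5 to 156, and open symbols are mostly those of replicates 1 and 2.

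The 10 precursors with a summit in every replicate list were mir-279, mir-4981, mir-2496, mir-375, mir-955, mir-8, mir-9377, mir-92a, mir-308 and mir-9378, of which 6 lay outside protein-coding genes and 4 inside. Another 9 had a summit only in lists other than the conservative one. At mir-14, which limits cell death and fat storage, the signal was 85.1 in replicate 1 and 55.1 in replicate 3, both past the threshold, and 20.3 in replicate 2, which did not pass. Its region in the ranked conservative list had an irreproducible discovery rate (IDR) of 0.0401, above the highest rate of a conservative peak, 0.01. Among the lists made across replicates, that of 3247 held it. At mir-967 the values of replicates 1 and 3, 44.2 and 42.8, passed too, and that of replicate 2, 19.6, did not.

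For mir-275 and mir-305, which are cut from 1 primary transcript, a peak with a signal of 46.8 passed in replicate 2 alone, and the nearest conservative summit was 2238 and 2415 bp away. The others of the 9 were mir-4975, mir-274, mir-281-1, mir-281-2 and mir-4911. No list had a summit within 2000 bp of the remaining 231 precursors. Shares of all genes were taken for each list alone and not across lists. Whether the counts of 10, 9 and 231 differ from those of other genes was therefore not tested.

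The window sets which neighbours count. Just inside it were mir-277 at 1815 bp and mir-4968 at 1880 bp. Just outside were mir-1012 at 2013 bp (signal of 98.3), mir-2498 at 2200 bp from the peak of the mir-310 group, mir-1009 at 2211 bp (signal of 143) and mir-275 at 2238 bp (signal of 81.3).

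Since a primary transcript may begin far from its hairpin, the starts of host genes were examined too, a comparison chosen after the peaks at precursors had been seen. Of the precursors in a transcript of their own strand, 105 of 182 lay over 2000 bp from the nearest start of such a transcript (median 2630 bp). Among 128 protein-coding hosts on the same strand, 28 had a conservative summit within 500 bp of an annotated start, 21.9% (15.1 to 30.0), against 14.3% of protein-coding genes. Hosts had a mean of 2.21 distinct starts against 1.41 over all protein-coding genes, and a median span of 14094.5 bp against 2166 bp. At the annotated gene start alone the shares were 14.8% and 12.5%. The part of the number of starts in the difference was not tested.

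The bound hosts of coding type included spi, which encodes a ligand of the epidermal growth factor receptor and holds mir-2a-1, mir-2a-2 and mir-2b-2 over 5 kb downstream. The summit there was 171 bp from the start, with a signal of 344 (rank 369) and 72.1, 142 and 121 in the replicates. The highest signal at any start of a protein-coding host was 755 (rank 74), at Btk, the gene of a tyrosine kinase that holds mir-2b-1; that start belongs to a transcript without the hairpin. Among starts of transcripts that contain the hairpin the highest was that of CG5953, host of mir-4943, at 530 (rank 157), with 160, 201 and 173 in the replicates. At MRP, which encodes an ABC transporter and holds mir-9382, the signal was 405 (rank 269), with 108, 141 and 143. Of the 136 precursors with such a host, 30 were in a bound one, and for 3 of the 30 a summit also lay in the window of the precursor.

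Noncoding hosts had a summit near a start more often than ncRNA genes other than precursors. Numbers of starts, spans and shares at the annotated gene start alone were not compared between these sets. The part of the number of starts in this difference was therefore not tested. Of 37 noncoding hosts on the same strand, 7 had a summit within 500 bp of a start, 18.9% (7.96 to 35.2), against 4.76% of ncRNA genes other than precursors. They were the hosts of mir-279 with mir-996, of mir-277 with mir-34, and of mir-8, mir-375, mir-282, mir-275 and bantam. At lncRNA:CR43459, which contains mir-277 and mir-34, the nearest summit was 86 bp from the start with a signal of 86.9, and 17.2, 26.2 and 29.5 in the replicates, none past the threshold. At lncRNA:CR43334, which contains bantam 13.7 kb downstream, it was 155 bp from a start with a signal of 95.2, and 37.0, 29.6 and 28.8, again none past the threshold. Only the starts of the mir-279, mir-8, mir-375 and mir-282 hosts had a peak that passed in replicate lists, and at the mir-282 host that start belongs to a transcript without the hairpin. Those peaks are among the ones already counted at the precursors, so the host share is no separate finding there. Of the 51 precursors with a noncoding host, 9 were in a bound one. For 6 of the 9 a summit also lay in the window of the precursor.

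Of 22 well-studied microRNAs, 5 had a conservative summit within 2000 bp, namely bantam, mir-8, mir-279, mir-282 and mir-310. At this distance the shares were 7.69% of all precursors and 18.4% of genes of every class. The absences below are given for each microRNA and are not a result about the 22 as a set. No list had one at let-7 (mir-let7), a timer of development, or at mir-1, which acts in muscle, and the nearest conservative summits were 5550 and 8300 bp away. At mir-124, which acts in neurons, and at mir-10 of the Antennapedia complex the distances were 52107 and 49995 bp. The hairpins of mir-iab-4 and mir-iab-8, on opposite strands of 1 site in the bithorax complex, had ranked regions with signals of 17.3, 18.7 and 20.8 in the replicates, none past the threshold. At mir-34 the strongest ranked regions had 31.9, 23.9 and 23.6, and at mir-9a, which acts in sensory organ formation, 20.6, 20.5 and 18.6. The others, mir-7, mir-11, mir-184, mir-bft (also called mir-263a), mir-276a, mir-278, mir-309 and mir-315, had no summit in any list. Their nearest conservative summits were 5401 bp (mir-11) to 34575 bp (mir-bft) away, and their ranked regions had signals of 10.3 to 41.8 in the replicates. Whether binding in few cells of these mixed embryos went undetected was not tested, and read depth is unknown.

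**Figure D5:**
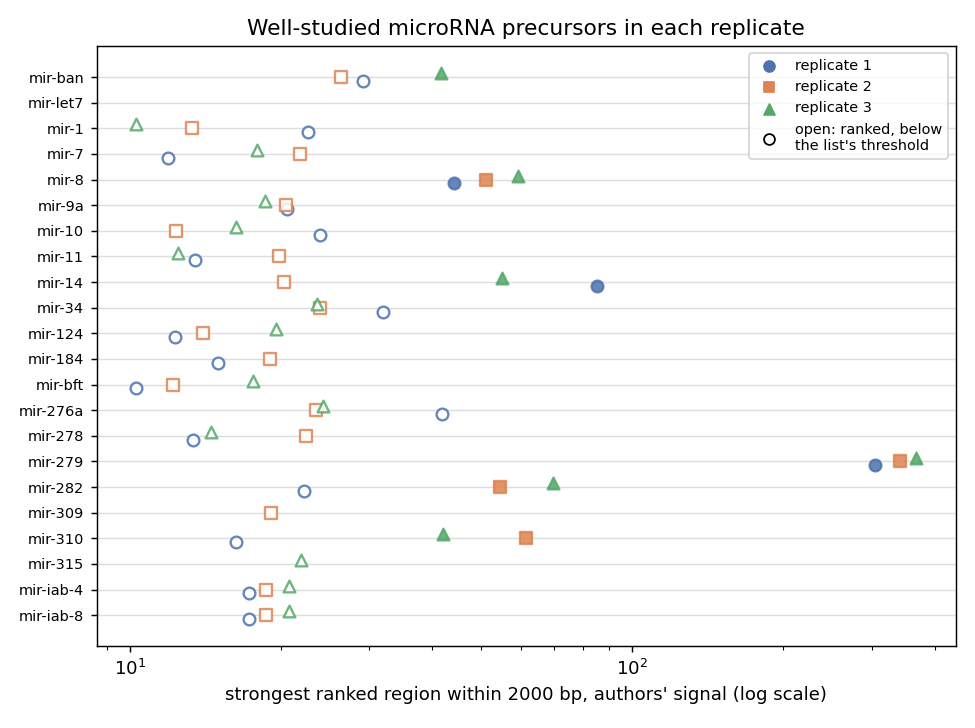
Strongest ranked region within 2000 bp of each of 22 well-studied precursors in replicates 1, 2 and 3 (authors' signal, log scale); filled symbols mark replicates whose list holds a peak there, and a missing symbol means no ranked region. Only mir-279, with 304 to 368, stands apart from the rest, and mir-8 is the other precursor filled in all 3 replicates.

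A list of genes that make and use microRNAs was compared with protein-coding genes at the same distance, 500 bp from any start. It also holds r2d2 and Dcr-2, which act with small interfering RNAs, chaperones and factors of RNA decay. Its share is therefore not one of microRNA genes alone. Of the 38 genes listed, 8 had a conservative summit, 21.1% (9.55 to 37.3), against 14.3% of protein-coding genes. There was no summit at drosha, pasha, Ranbp21, Dcr-1, loqs or AGO1. The dicing partner that had one was r2d2, which loads small interfering RNAs with Dcr-2, with a signal of 252 and 61.2, 95.8 and 101 in the replicates. Among effectors gw, the gene of the GW182 silencing protein, had a signal of 124 and 41.7, 40.2 and 48.1.

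Of the chaperones that load Argonaute proteins, Hsp83 had a signal of 386, with 128, 111 and 156 in the replicates. Hsc70-4 had 142, with 27.3, 51.0 and 71.4, and Droj2 had no summit. For RNA decay, Smg5, a factor of nonsense-mediated decay, had the highest signal of the list, 487 (rank 195), with 118, 170 and 193. Pop2, a deadenylase, had 173 and DCP2, the decapping enzyme, 116. The other deadenylation genes listed, Not1, twin, Not3 and Rga, had no summit. The other decapping genes listed, me31B, Patr-1, Ge-1 and DCP1, had none either. Cbp20 of the nuclear cap-binding complex had 142, with 40.4, 51.9 and 51.9, and Cbp80 had no summit. The peaks of Cbp20, r2d2, gw, Hsp83 and Smg5 were in every replicate list.

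The letters around some of the summits on arms 3R, X and 2L are printed to show what they hold, 50 bp to each side, plus strand of dm6, with matched motifs in capitals. They are the strongest peaks of mir-279, mir-9377, mir-92a, mir-2496 and mir-375, then weaker peaks of mir-2496 and mir-375, shown because they hold the Zelda word.
mir-279, chr3R:29214397-29214497: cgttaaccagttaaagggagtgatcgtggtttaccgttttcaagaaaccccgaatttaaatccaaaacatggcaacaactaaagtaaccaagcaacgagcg
mir-9377, chrX:12666563-12666663: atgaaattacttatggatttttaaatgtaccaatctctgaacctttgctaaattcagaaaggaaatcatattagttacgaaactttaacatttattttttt
mir-92a, chr3R:25647023-25647123: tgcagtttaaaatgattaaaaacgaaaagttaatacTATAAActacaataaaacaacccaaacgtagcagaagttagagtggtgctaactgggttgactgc
mir-2496, summit 1463 bp downstream, chrX:2011713-2011813: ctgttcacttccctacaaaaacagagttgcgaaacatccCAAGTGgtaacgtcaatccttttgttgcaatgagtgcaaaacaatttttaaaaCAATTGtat
mir-375, summit 721 bp upstream, chr2L:856771-856871: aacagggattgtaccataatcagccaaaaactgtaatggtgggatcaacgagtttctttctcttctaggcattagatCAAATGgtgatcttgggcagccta
mir-2496, summit 437 bp upstream, chrX:2009813-2009913: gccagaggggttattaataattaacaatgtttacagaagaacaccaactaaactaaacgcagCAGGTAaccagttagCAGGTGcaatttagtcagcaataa
mir-375, summit 514 bp upstream, chr2L:856978-857078: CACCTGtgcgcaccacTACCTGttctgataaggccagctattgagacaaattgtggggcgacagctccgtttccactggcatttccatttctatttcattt
No motif searched was found in the windows of mir-279 and mir-9377. The window of mir-92a held a TATA box. At mir-2496 and mir-375 the strongest peaks (signals of 197 and 171) held an E-box and no Zelda word, and the weaker ones printed (signals of 152 and 20) held both.

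Motifs were searched on both strands. An E-box (CANNTG) was in 10 of the 22 windows at precursors (45.5%), against 33.8% of all 3502 conservative windows. The word CAGGTA, bound by the early activator Zelda, was in 3 (13.6% against 1.91%), a TATA box (TATAAA) in 3 (13.6% against 23.0%) and the word ACAGTG in 3 (13.6% against 7.82%). The 3 windows with CAGGTA were those 514 bp upstream of mir-375, 437 bp upstream of mir-2496 and 910 bp downstream of mir-308. Each belonged to a weaker peak than another at the same precursor. That of mir-308 passed in replicate 3 alone, and that of mir-2496 did not pass in replicate 1. The CTCF core (AGATGGCGC or AGGTGGCGC) was in 1 (4.55% against 1.17%). The DNA replication-related element (TATCGATA), GAGAG and a run of 8 A were in none, against 1.40%, 8.79% and 8.42% of all windows. These words can share letters where they overlap. Mean GC content was 35.4% ± 6.94 in the 22 windows and 33.5% ± 9.64 in all (SD over windows). Of the 22 peaks, those 721 and 514 bp upstream of mir-375 overlap, although their windows share no base.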

How the data were processed

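Peaks were called by the authors, and the deposited signal column (peak height) was used as given. The deposited score column was read and no result rests on it. Neither aligner nor peak caller is named in the labels, so their settings are not known here, and the control library was not analysed here. Ranked lists also hold the irreproducible discovery rate (IDR) as −log10 values from the authors, and the highest rate in the conservative thresholded list was 0.01. Read depth is unknown. The number of ranked regions (46992 to 49504 per replicate) is given in its place and is not a count of reads. Another 8 columns, signals of compared entries whose replicate is not named, were not used.

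Summits were set against the Ensembl 115 annotation and the RefSeq genome, whose arms no peak passed. Scripts used Python 3.11.15, NumPy 2.4.6 and SciPy 1.17.1; the window query was tested on simulated summits. With 1 group there was no test between conditions, and shares carry exact binomial 95% intervals beside the share of all genes. Every precursor with a conservative summit is named, together with a list of 22 well-studied ones. The members, lists and motifs were chosen with earlier results of these data known.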

Additional observations from a re-analysis of the deposited data

How the results depend on the processing

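The share of precursors with a conservative summit (7.69%) stayed inside its interval under 12 of 16 alternatives, that of precursors outside protein-coding genes (14.1%) under 13 of 17 and that inside (4.22%) under 16 of 17. The distance moved them most. Within 500 bp the shares were 1.54% of all precursors and 1.09% outside, against 10.6% of genes of every class. Within 1000 bp they were 3.85% and 5.43%, against 13.5% of genes. Within 5000 bp they were 24.6% of all precursors, 26.1% outside and 23.5% inside, against 31.3% of genes. With the peaks at or above the median signal of each list they were 4.23% of all and 7.61% outside. The mean over replicate lists (6.67%) became 1.41%, 3.85% and 18.6% at those distances, 2.69% with those stronger peaks, 8.74% over precursors with a ranked region and 4.61% without precursors that have a protein-coding start within 2000 bp. Leaving out each replicate gave 5.96% to 7.31% for the mean, and 12 to 15 peaks found in all replicates left. For the conservative shares, only peaks that overlapped a peak of another replicate list than the one left out were kept. That gave 5.77% to 6.92% of all, 12% to 14.1% outside and 2.41% to 3.01% inside. The conservative list itself was not remade, and the main shares carry no such filter, so these values do not isolate the part of a replicate. The counts of such peaks and of pathway genes (8 to 12) kept within 1.5 times. The host share of 21.9% fell to 14.8% at the annotated gene start alone, an alternative chosen after seeing the data. The cause of these shifts was not tested. No paired analysis was possible because all replicates belong to 1 group. Calls limited to the authors' lists say nothing of weaker binding.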
